A study of Mus musculus with 53 samples.

Results

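The genes described here are 9 secreted Wnt antagonists: Sfrp1, Sfrp2, Sfrp4, Sfrp5, Frzb, Wif1, Dkk1, Dkk2 and Dkk3. They were taken by symbol from tables of mouse cerebellar transcripts, which hold 55573 genes at postnatal day 2 (P2) and 57010 genes at P7, and each of the 9 had 1 row at each age. They were chosen by family, with the values of these same samples in view, in which Sfrp1 was lower and Wif1 higher in mutants. For Sfrp1 and Wif1 the values of mutants and controls are therefore given as a description, without a test. Of the other 7, those that passed the filter on low counts were tested, mutants against controls. Their p-values were adjusted over all genes tested.

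Wnt ligands are secreted proteins that bind Frizzled receptors and the co-receptors Lrp5 and Lrp6, and in the canonical pathway this stabilises β-catenin, which acts with Tcf and Lef factors on target genes. The secreted frizzled-related proteins (Sfrp1, Sfrp2, Sfrp4, Sfrp5 and Frzb) carry a domain that resembles the Wnt-binding part of Frizzled, and Wif1 binds Wnt ligands through a domain of its own. Dkk1 and Dkk2 bind Lrp5 and Lrp6 together with Kremen receptors, whereas Dkk3 is a divergent member of the Dickkopf family whose receptor use is less settled. In the early postnatal cerebellum, granule cell progenitors proliferate in the external germinal layer and then leave it as granule neurons.

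The mutants carried Atoh1Cre, a recombinase active in the granule cell lineage, together with either Insm1fl/fl or Tead1fl/fl;Tead2fl/fl. Insm1 is a zinc finger transcription factor of neural and neuroendocrine progenitors, and Tead1 and Tead2 are DNA-binding partners of the Yap and Taz coactivators. Controls were littermates with the same floxed alleles and without Cre. Of the 53 samples of the study, 15 are P2 RNA-seq libraries of 1 cerebellum each (4 controls and 4 mutants for Insm1, 3 controls and 4 mutants for Tead1/2), and 1 is a P7 single-cell sample of 10 libraries, each from 1 cerebellum, with 2 controls and 3 mutants per allele. In every P7 group library 1 held all lobules, and the others were dissected without lobules IX and X. The series' title names the repression of muscle fate in the cerebellum as its question, and the other assays were not analysed here.

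Depth was 28066728 to 64518819 expected counts per P2 library and 90269989 to 211707202 transcript molecules (UMIs) per P7 library over 4779 to 10710 barcodes, with 0 barcodes shared between libraries. Insm1 fell from 30.8 to 71.9 CPM (counts scaled to library size) in P2 controls to 8.44 to 16.1 in Insm1 mutants. Tead2 was at 22.3 to 25.7 CPM in P2 controls of the Tead1/2 libraries, at 17.4 to 19.5 in mutants 1 to 3 and at 25.9 in the library labelled mutant 4, which goes against its label, while Tead1 overlapped between these groups. In the P7 granule lineage Tead2 was at 32.5 to 33.5 CPM in controls and 10.9 to 11.9 in mutants while Tead1 was higher in mutants. These are counts over whole genes, and which part of each gene is deleted was not found in the labels. That P2 library stood apart from its group in other genes too: 16 skeletal muscle markers summed to 19.7 CPM there, against 176 to 235 in the other 3 mutants and 22.6 to 25.2 in the controls. The labels give the P2 libraries of the Insm1 and the Tead1/2 alleles different batches, so that allele and batch cannot be told apart in a comparison of the alleles at P2. The P2 fits that hold the Tead1/2 libraries are therefore given with and without it. In the P7 sums over all barcodes the same 16 markers rose from 54.4 to 75.7 CPM in the controls of both alleles to 5499 to 6478 in Insm1 mutants and 12456 to 19833 in Tead1/2 mutants.

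At P2, Sfrp1 (ENSMUSG00000031548) stood well below its control level in Insm1 mutants and in 3 of the 4 Tead1/2 mutants, and none of the 6 other members that could be fitted had a log2 change as large. The 4 Insm1 controls had 49.0, 46.4, 49.4 and 54.2 CPM of Sfrp1, and the 4 mutants of that allele had 19.4, 23.6, 21.6 and 23.8 CPM. The groups did not overlap, and the fitted log2 change was -1.17 (SE 0.08). In the Tead1/2 libraries Sfrp1 was at 67.3, 70.2 and 57.9 CPM in controls and at 29.3, 28.3, 35.0 and 66.6 CPM in mutants. The library labelled Tead1/2 mutant 4 lay within the control range, the other 3 lay below it, and the log2 change was -0.73 (SE 0.25) with all 7 libraries and -1.08 (SE 0.10) without that library. In whole tissue, fewer cells that express a gene and less RNA per cell cannot be told apart. The 10 granule progenitor markers summed to 1392 to 1543 CPM in Insm1 controls and 1197 to 1289 in Insm1 mutants, which do not overlap, with 0 of 10 called. In Tead1/2 controls and mutants they summed to 1216 to 1376 and 1310 to 1492 CPM, with 0 of 10 called. Over all genes 0.689% were called for Insm1 and 0% for Tead1/2, so these counts of 0 say little about the markers. The part of these markers in the Sfrp1 values was not tested.

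Sfrp2 (ENSMUSG00000027996) was at 11.6, 10.8 and 10.2 CPM in Tead1/2 controls and at 15.7, 13.9, 14.4 and 10.8 CPM in mutants. Its log2 change was 0.33 (SE 0.12, adjusted p = 0.170) with every library. Without the library labelled mutant 4 the change was 0.42 (SE 0.08, adjusted p = 0.0291), so that Sfrp2 was called higher only in that fit and in the fit with no filter on low counts. In the Insm1 libraries Sfrp2 was at 13.6, 12.2, 11.1 and 10.99 CPM in controls and at 14.9, 13.4, 13.98 and 11.3 CPM in mutants, ranges that overlap (log2 change 0.17, SE 0.11, adjusted p = 0.675). Sfrp4 (ENSMUSG00000021319), at 4.63 to 6.37 CPM, and Frzb (ENSMUSG00000027004), at 1.301 to 2.16 CPM over all 15 libraries, overlapped between mutants and controls of both alleles. For the Tead1/2 deletion the log2 change of Sfrp4 was 0.06 (SE 0.13) with every library and 0.02 (SE 0.14) without the library labelled mutant 4, and that of Frzb was -0.10 (SE 0.17) and -0.09 (SE 0.19). Sfrp5 was near the limit of detection, with 1 to 9 counts per library.

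Wif1 (ENSMUSG00000020218) overlapped between mutants and controls at P2 for both alleles, with a lower fitted level in Insm1 mutants and a higher one in Tead1/2 mutants. It was at 4.61, 3.73, 6.94 and 4.40 CPM in Insm1 controls and at 4.48, 3.74, 3.96 and 4.57 CPM in Insm1 mutants, and the log2 change was -0.23 (SE 0.19). With any 1 library left out, Wif1 changed by -0.34 to -0.014. In the Tead1/2 libraries it was at 3.70, 5.13 and 5.11 CPM in controls and at 5.03, 5.22, 6.26 and 5.20 CPM in mutants (log2 change 0.22, SE 0.14, and 0.24, SE 0.15, without the library labelled mutant 4).

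Of the Dickkopf genes, Dkk3 (ENSMUSG00000030772) was at 39.7, 36.8, 36.2 and 34.0 CPM in Insm1 controls and at 47.0, 41.6, 37.4 and 38.5 CPM in Insm1 mutants, which overlap (log2 change 0.17, SE 0.08, adjusted p = 0.583). In the Tead1/2 libraries it was at 41.1, 41.9 and 38.6 CPM in controls and at 41.5, 46.2, 43.3 and 41.4 CPM in mutants, which overlap too (log2 change 0.09, SE 0.06, adjusted p = 0.432, and 0.11, SE 0.06, adjusted p = 0.363, without the library labelled mutant 4). Dkk2 (ENSMUSG00000028031) was at 1.19 to 2.19 CPM and overlapped between groups for both alleles. Its log2 change after Tead1/2 deletion was -0.08 (SE 0.17) with every library and -0.05 (SE 0.19) without the library labelled mutant 4. Dkk1 had 0 to 11 counts per library. Sfrp5 and Dkk1 did not pass the filter on low counts, so 7 of the 9 genes were fitted at P2.

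**Figure D1:**
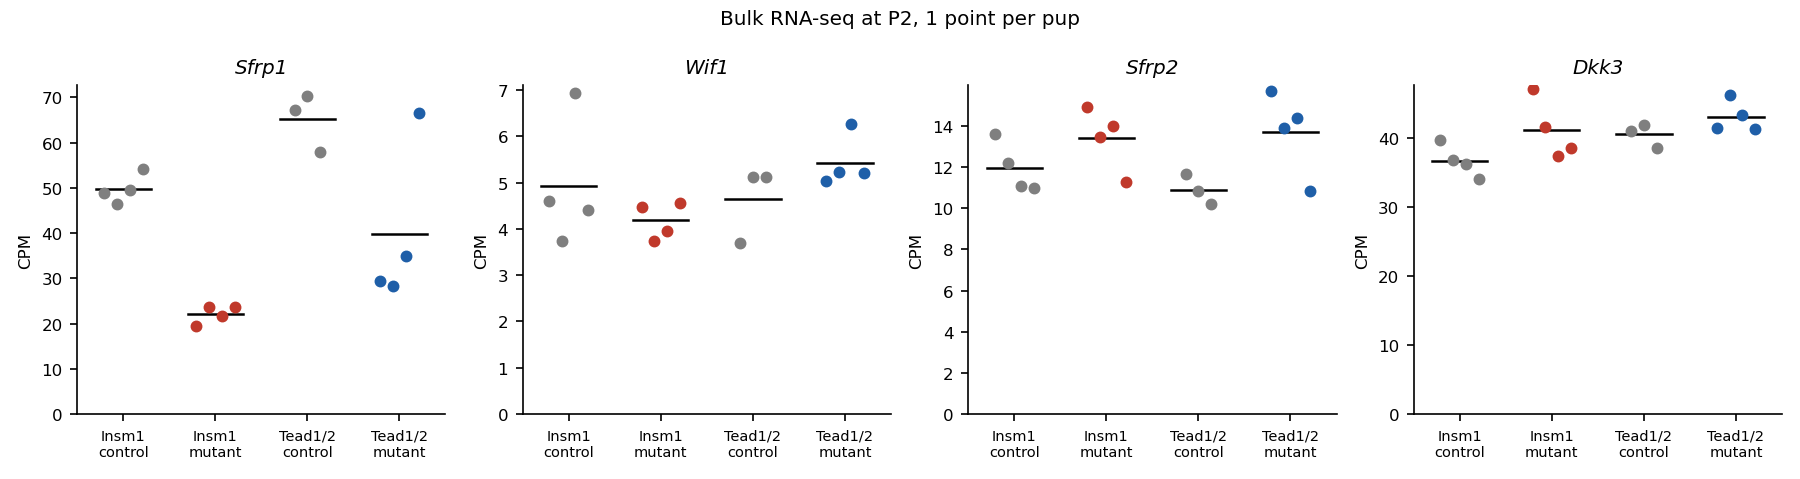
CPM of Sfrp1, Wif1, Sfrp2 and Dkk3 in each P2 cerebellum, with 1 point per library and a line at each group's mean. For Sfrp1 the 4 Insm1 mutants sit between 19.4 and 23.8 CPM, below all 4 Insm1 controls, and 1 Tead1/2 mutant at 66.6 CPM sits among its controls.

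Of the 5 members tested, edgeR's quasi-likelihood test called 0 at P2 for the Insm1 deletion, where 0.689% of the 19582 genes tested were called (0.48% higher and 0.209% lower). None of the 5 had an unadjusted p under 0.05, and DESeq2 also called 0. For the Tead1/2 deletion edgeR called 0 of 5, with 1 (Sfrp2) at an unadjusted p under 0.05 and 0 by DESeq2, where 0% of 20247 genes were called with every library (4052 genes at an unadjusted p under 0.05, and 1005 called by DESeq2). Without the library labelled Tead1/2 mutant 4, 3.19% of genes were called (1.98% higher and 1.22% lower), and 1 of the 5 members. The difference between the Insm1 and the Tead1/2 effects was called for 0 of the 7 members, including Sfrp1 (-0.45, SE 0.30, adjusted p = 0.838) and Wif1 (-0.45, SE 0.25, adjusted p = 0.783), with 0 at an unadjusted p under 0.05, 0 by DESeq2, and 0% of all genes called by edgeR. Without the library labelled Tead1/2 mutant 4 this difference was -0.09 (SE 0.13, adjusted p = 0.952) for Sfrp1 and -0.47 (SE 0.26, adjusted p = 0.794) for Wif1, with 0 of 7 members and 0% of all genes called and 0 members at an unadjusted p under 0.05. The Sfrp1 difference with every library thus shrank when that library was left out. The median log2 change of the 7 members fitted was 0.03 for Insm1 and 0.06 for Tead1/2 (0.02 without that library), beside 0.01 and -0.01 over all genes.

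Across the 15 P2 libraries, log2 CPM was correlated after the mean of each allele's libraries had been subtracted. Among 16372 genes that averaged 1 CPM or more, those most like Sfrp1 were Crybg3 (Pearson's r 0.993), Pcsk2 (0.987), Islr (0.982), Clmp (0.969) and Gm28703 (0.967). For Wif1 the highest values were those of Zfp64 (0.844), Zfp251 (0.840), Tgif2 (0.835), Actr8 (0.830) and Cdc20 (0.828). These correlations are a description over libraries that share genotypes, and the subtraction also took out the mean of each batch. The coefficients of the genes nearest Wif1 were lower than those of the genes nearest Sfrp1. Without the library labelled Tead1/2 mutant 4 they were 0.993 for Crybg3 and 0.847 for Zfp64.

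At P7, in sums over every barcode past the cell filters, Sfrp1 was lower and Wif1 and Dkk2 were higher in the mutants of both alleles, while Sfrp2 and Sfrp4 fell after Tead1/2 deletion. Sfrp1 was at 212 and 220.0 CPM in Insm1 controls and at 77.3, 76.6 and 70.8 CPM in Insm1 mutants (log2 change -1.53, SE 0.11). In Tead1/2 controls it was at 204 and 186 CPM and in mutants at 47.2, 46.0 and 62.3 CPM (log2 change -1.91, SE 0.11). No mutant reached the level of a control for either allele. The 10 granule progenitor markers moved with it: their sum was 3004 to 3031 CPM in Insm1 controls and 2047 to 2143 in mutants (8 of 10 called lower), and 3281 to 3320 and 1634 to 1807 CPM for Tead1/2 (9 of 10 called lower). None of these markers was at 0.

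Wif1 was at 2.54 and 1.93 CPM in Insm1 controls and at 6.53, 7.06 and 6.54 CPM in Insm1 mutants (log2 change 1.59, SE 0.17). In Tead1/2 controls it was at 1.68 and 1.08 CPM and in mutants at 12.2, 13.2 and 11.7 CPM (log2 change 3.15, SE 0.19). The groups did not overlap for either allele, and the Tead1/2 mutants stood above the Insm1 mutants. In the same sums the 10 meningeal fibroblast markers, Igf2 among them, went from 262 to 279 CPM to 980 to 1094 for Insm1. Of the 10, 2 were called higher, and the median log2 change of the list was 0.33. For Tead1/2 they went from 244 to 272 to 2012 to 2325 CPM (9 of 10 called higher, median 1.19), and none was at 0. The Insm1 sum thus rose more than the typical gene of the list, and the part of Igf2 in it was not tested. Fibroblast-like cells made up 1.22% and 1.42% of the cells kept for clustering in Insm1 controls and 1.46%, 0.965% and 0.141% in mutants. For Tead1/2 the shares were 1.64% and 0.876% in controls and 1.85%, 3.05% and 5.0% in mutants. For Wif1 the difference between the effects, Insm1 minus Tead1/2, was -1.57 (SE 0.24, edgeR adjusted p = 0.0091). Over 17 other settings its adjusted p ranged from 9.84e-09 to 0.0367. The direction of Wif1 in these same mutants was part of the choice of genes, so this p is not independent of that choice. The same contrast was called lower for 11 of the 16 skeletal muscle markers and for 2 of the 10 meningeal fibroblast markers, and the part of either list in these Wif1 values was not tested.

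Dkk2 was at 1.89 and 2.75 CPM in Insm1 controls and at 4.62, 4.62 and 4.06 CPM in Insm1 mutants, and it rose by a log2 change of 0.93 (SE 0.30, adjusted p = 0.0369). This call was lost without Insm1 control 1 (0.67, adjusted p = 0.241) and without any single Insm1 mutant (adjusted p = 0.0604 to 0.0845), and also with the barcodes marked as doublets left out (1.13, adjusted p = 0.0768), within a range of 0.00552 to 0.241 over all settings. In Tead1/2 controls Dkk2 was at 2.16 and 0.943 CPM and in mutants at 9.02, 8.91 and 5.88 CPM, a rise of 2.33 (SE 0.33, adjusted p = 0.000202) that was called with each library left out. The difference between the alleles for Dkk2 was -1.40 (SE 0.43, adjusted p = 0.107). It was called without Tead1/2 control 1 (adjusted p = 0.0337), with DESeq2 (0.00948) and with no filter on low counts (0.0382), and the range over all settings was 0.00948 to 0.331.

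Wif1 and Dkk2 are shown because both were higher in the mutants of both alleles in the sums over all barcodes, in which the muscle markers rose. The 250 bases before the start of each gene are printed as RefSeq's GRCm38.p6 models place it, at chr10:121033754-121034003 for Wif1 and chr3:132085042-132085291 for Dkk2, both on the plus strand. Capitals mark the letters of an E-box (CANNTG, the site of basic helix-loop-helix factors such as Myod1 and Atoh1), of the Tcf/Lef motif CTTTGA, of the Tead motif CATTCC and of the TATA box TATAAA, each searched on both strands.
Wif1: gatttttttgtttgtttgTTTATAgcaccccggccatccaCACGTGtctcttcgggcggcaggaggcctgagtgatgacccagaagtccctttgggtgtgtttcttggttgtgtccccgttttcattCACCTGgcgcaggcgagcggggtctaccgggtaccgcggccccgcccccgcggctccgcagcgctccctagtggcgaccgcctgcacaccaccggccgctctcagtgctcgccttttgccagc
Dkk2: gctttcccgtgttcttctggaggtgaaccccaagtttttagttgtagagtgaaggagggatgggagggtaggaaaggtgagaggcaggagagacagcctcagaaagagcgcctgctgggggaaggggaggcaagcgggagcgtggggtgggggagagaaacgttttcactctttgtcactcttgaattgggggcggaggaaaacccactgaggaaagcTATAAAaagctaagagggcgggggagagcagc
The Wif1 window holds E-box letters 210 and 123 bases before the start and TATA-box letters, on the opposite strand, 232 bases before it, and the Dkk2 window holds TATAAA 32 bases before the start. Neither window holds the letters of the Tead or the Tcf/Lef motif. Of 32851 windows of 250 bases before mouse genes, 66.2% hold E-box letters, 13.8% the Tcf/Lef letters, 12.6% the Tead letters and 12.4% the TATA-box letters. A match of letters is a description and not a bound site. The table of promoters had an entry for 6 of the 9 members; Sfrp1, Sfrp4 and Dkk3 are not printed.

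Sfrp2 fell after Tead1/2 deletion in the P7 sums, from 5.13 and 4.59 CPM in controls to 2.03, 3.03 and 3.04 CPM in mutants (log2 change -0.84, SE 0.20, adjusted p = 0.00658). Sfrp4 fell from 1.87 and 2.27 CPM to 1.34, 1.40 and 1.31 CPM (log2 change -0.61, SE 0.14, adjusted p = 0.00544). In the same sums the 10 granule neuron markers went from 4991 to 5761 CPM in Tead1/2 controls to 3146 to 3357 in mutants (3 called higher and 4 lower), and of the 10 granule progenitor markers, whose sums are given with Sfrp1, 1 was called higher and 9 lower. Their part in the Sfrp2 and Sfrp4 values was not tested. The Sfrp2 call was lost without Tead1/2 control 1 (adjusted p = 0.0556) and the Sfrp4 call without Tead1/2 control 2 (0.0716) and with the barcodes marked as doublets left out (0.106), with ranges over all settings of 0.000131 to 0.0556 and 0.000645 to 0.106. In the Insm1 libraries neither was called: Sfrp2 was at 4.18 and 4.76 CPM in controls and at 2.78, 4.30 and 3.95 in mutants (adjusted p = 0.329), and Sfrp4 at 2.03 and 1.86 and at 1.72, 1.76 and 1.38 (adjusted p = 0.187). The fitted Sfrp2 change after Tead1/2 deletion was 0.33 at P2, which was not called (adjusted p = 0.170), and -0.84 in these P7 sums but -0.06 (adjusted p = 0.922) in the granule lineage at P7, and a difference between the ages was not tested.

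Dkk3 was at 17.7 and 19.6 CPM in Insm1 controls and at 22.7, 25.5 and 28.8 CPM in Insm1 mutants at P7. Its log2 change of 0.46 (SE 0.17) had an adjusted p of 0.0609. It was called with DESeq2 (0.0296), with no filter on low counts (0.0401) and without Tead1/2 mutant 1 (0.0373) or mutant 3 (0.00884), and not under the other settings. In the Tead1/2 libraries Dkk3 was at 18.8 and 16.7 CPM and at 15.6, 17.3 and 24.3 CPM, groups that overlap. Frzb was at 0.650 to 1.14 CPM in all 10 libraries and was not called for either allele, although it was called higher after Tead1/2 deletion without Tead1/2 mutant 2 (0.62, adjusted p = 0.0421, over a range of 0.0421 to 0.750 over all settings). Sfrp5 had 0 to 6 UMIs and Dkk1 0 to 6 UMIs per library, and neither was fitted.

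**Figure D2:**
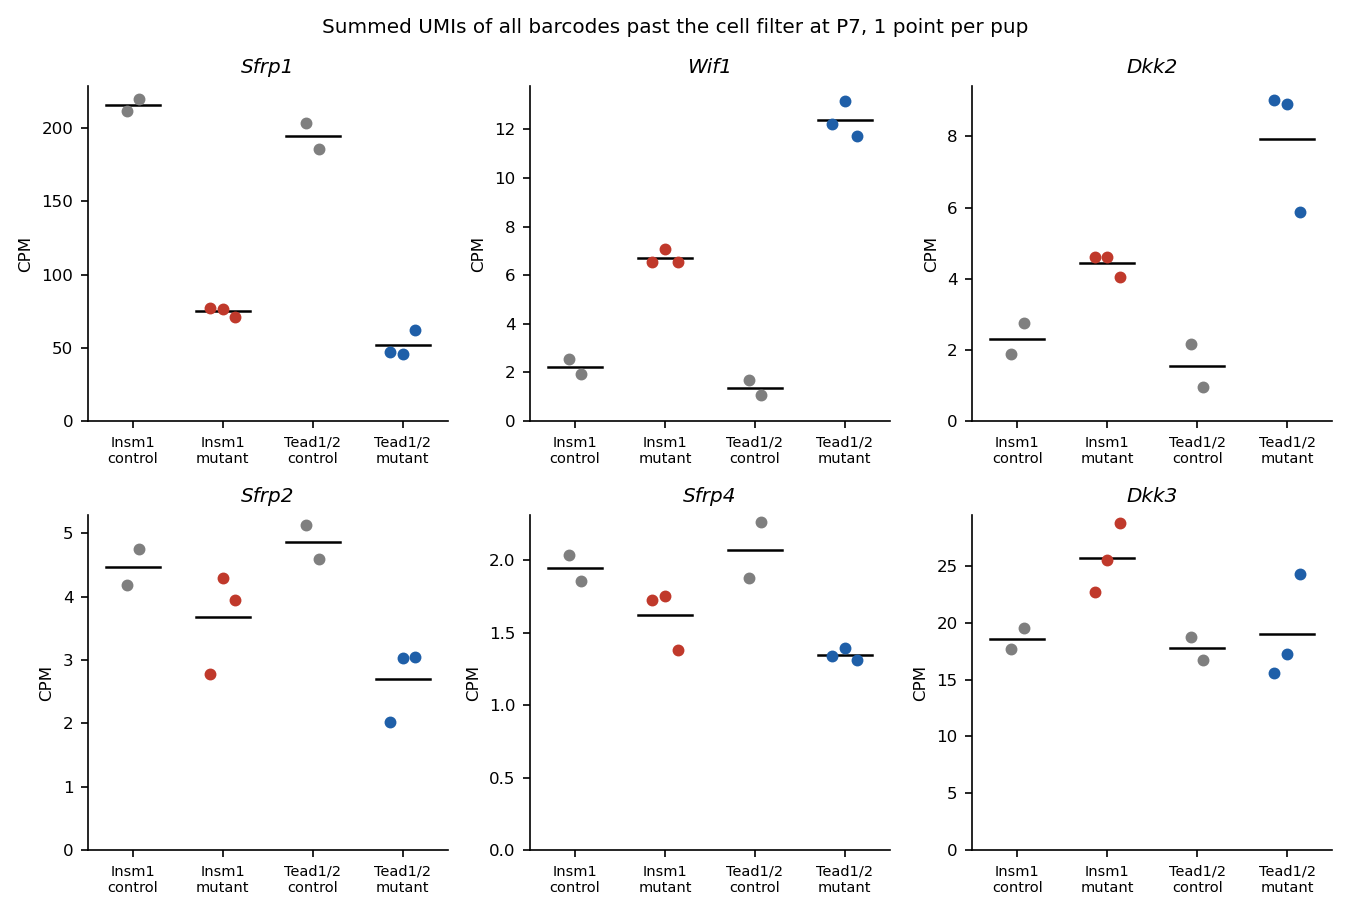
CPM of Sfrp1, Wif1, Dkk2, Sfrp2, Sfrp4 and Dkk3 in UMIs summed over all barcodes of each P7 library, with 1 point per library and a line at each group's mean. Mutants lie below controls for Sfrp1 and above controls for Wif1 and Dkk2 for both alleles, and the Tead1/2 mutants of Wif1 reach 11.7 to 13.2 CPM.

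The share of all genes called in these P7 sums was 33.9% of 24602 for Insm1 (18.6% higher and 15.4% lower) and 48.6% for Tead1/2 (25.9% higher and 22.7% lower). Among the 5 members tested, 1 was called higher and 0 lower for Insm1, and 1 higher and 2 lower for Tead1/2. These counts have to be read against shares of that size. The difference between the alleles was called for 1 of 7 members (Wif1) and for 3.68% of all genes (1.51% higher and 2.17% lower). The direction of Wif1 in these mutants was part of the choice of genes, so this call is not independent of it. Keeping or removing lobules IX and X was called for 0 of 7 members by edgeR, with 1 (Sfrp2) at an unadjusted p under 0.05 and 0 by DESeq2, where edgeR called 0% of all genes. The median log2 change of the 7 members fitted was 0.00 for Insm1 and 0.10 for Tead1/2, beside 0.04 and 0.06 over all genes.

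The cells that carried each antagonist at P7 were described in clusters named from preset markers, after barcodes marked as doublets (30.1% to 55.3% per library) had been left out. The 9 genes were kept out of the clustering. Levels and shares by class cover only the barcodes kept, and rankings hold among the classes named. No class of Purkinje, mural or ependymal cells was named there. Such classes were named with only the highest 4% of doublet scores left out. Levels by class are CPM of UMIs summed per class and library, without the TMM scaling of the fits, for classes with at least 30 cells in a library. Sfrp1 was highest in granule progenitor-like cells, with a median of 230.2 CPM and a range of 157 to 430.4 over the 10 libraries. Meningeal fibroblast-like cells followed with a median of 86.1 CPM (40.0 to 131), a range that does not reach that of progenitors, and granule neuron-like cells with 30.2 CPM (16.0 to 53.0), which overlaps that of fibroblast-like cells. Skeletal muscle-like, oligodendrocyte lineage-like, endothelial-like, astroglia-like and interneuron-like cells had medians of 5.38 to 8.88 CPM with overlapping ranges, and microglia-like cells, which should lack the gene, had 2.21 CPM.

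Of all Sfrp1 UMIs in these cells, granule progenitor-like cells held 89.9% (10113 of 11252) in controls and 90.0% (4970 of 5522) in mutants for Insm1. For Tead1/2 they held 92.0% (11252 of 12231) in controls and 79.2% (5803 of 7324) in mutants. In Tead1/2 mutants fibroblast-like cells held a further 8.08%. With only the highest 4% of doublet scores left out, the microglia-like median of Sfrp1 was 63.0 CPM, so its low level outside the lineage depends on how doublets were treated.

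Among the cells kept for clustering, the share of Wif1 held by each class differed between controls and mutants. Its median was 24.7 CPM in astroglia-like cells (2.896 to 47.9), 21.0 CPM in skeletal muscle-like cells (10.3 to 24.8 in the 6 mutant libraries that held them) and 16.2 CPM in fibroblast-like cells (3.64 to 30.2), and these 3 ranges overlap. The astroglia-like and fibroblast-like medians pool controls and mutants. With only the highest 4% of doublet scores left out, the astroglia-like median of Wif1 was 10.7 CPM. Among the cells kept for clustering, astroglia-like cells held 83.9% of the Wif1 UMIs of Insm1 controls (130 of 155). For Tead1/2 controls the share was 61.2% (52 of 85). In Insm1 mutants (383 UMIs) astroglia-like cells held 39.4%, muscle-like cells 24.5%, progenitor-like cells 20.1% and an unnamed cluster with muscle markers 11.5%. In Tead1/2 mutants (1614 UMIs) muscle-like cells held 46.8%, progenitor-like cells 29.4% and astroglia-like cells 8.43%. The 3 muscle-like clusters held 1 of 2027, 3 of 75 and 1 of 1201 cells from control libraries. With only the highest 4% of doublet scores left out, class sizes changed unevenly by genotype. Astroglia-like cells then numbered 885 and 1107 in Insm1 controls and 624, 736 and 560 in mutants, against 232, 244, 290, 344 and 234 here. For Tead1/2 they numbered 492 and 252, and 353, 459 and 418, against 175, 35, 186, 267 and 275. The part of the doublet filter in the shares of Wif1, Sfrp1 and Dkk2 was not tested.

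Dkk2 was highest in microglia-like cells (median 26.5 CPM, 0 to 45.7) and in muscle-like cells (19.1 CPM, 0.857 to 27.9), ranges that overlap, and astroglia-like cells followed with 3.66 CPM. Muscle-like cells held 52.4% of the 145 Dkk2 UMIs of Insm1 mutants and 79.0% of the 955 UMIs of Tead1/2 mutants. Microglia-like cells held 50.6% of the 79 UMIs of Tead1/2 controls and 22.9% of the 48 of Insm1 controls. These totals cover only the cells kept for clustering and not all barcodes of the P7 sums. The 9 microglia markers, summed over all barcodes, were at 101 to 122 CPM in Insm1 controls and 193 to 247 in Insm1 mutants (4 of 9 called higher), and at 234 to 432 and 347 to 502 CPM in Tead1/2 controls and mutants (2 of 9). Their part in the Dkk2 sums was not tested.

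Dkk3 was carried mainly by non-granule cells: astroglia-like cells (median 165 CPM, 134 to 211) and fibroblast-like cells (159 CPM, 132 to 173) did not differ beyond their spread, and GABAergic interneuron-like cells were lower at 45.0 CPM (33.4 to 67.9). All other classes had medians of at most 4.30 CPM. With only the highest 4% of doublet scores left out, the astroglia-like median of Dkk3 was 78.4 CPM. The Frzb median was highest in fibroblast-like cells (9.91 CPM, 0 to 20.3). That range overlaps those of endothelial-like cells (4.70 CPM, 0 to 18.9) and oligodendrocyte lineage-like cells (2.65 CPM, 0 to 7.24). Frzb had no UMI in astroglia-like cells of any of the 10 libraries. Sfrp2 was highest in progenitor-like cells (9.08 CPM, 4.96 to 13.8) and at 0.527 CPM in neuron-like cells (0.295 to 1.67). Sfrp4 was highest in granule neuron-like cells (3.44 CPM, 2.56 to 5.12) and lower in progenitor-like cells (1.37 CPM, 0.875 to 1.70), while astroglia-like cells (2.53 CPM) overlapped both.

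**Figure D3:**
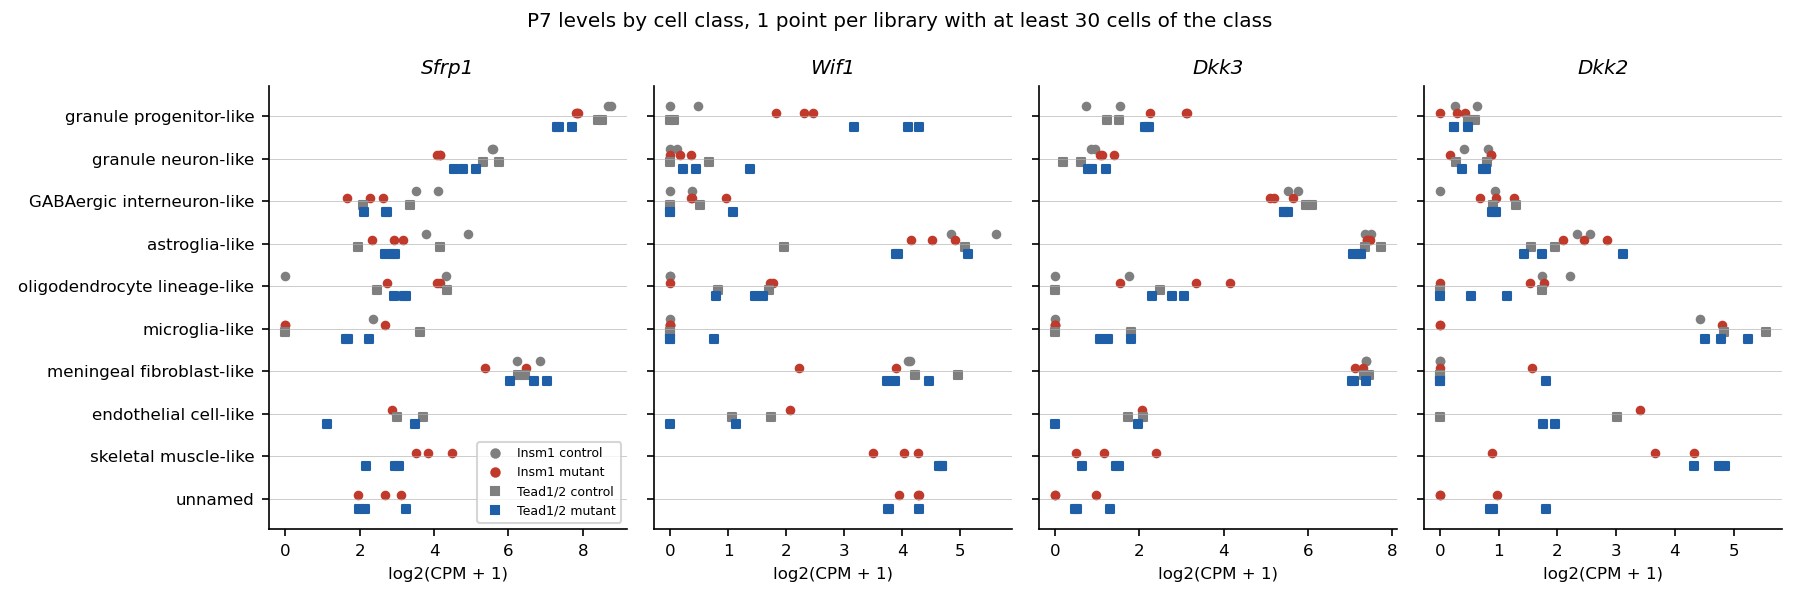
log2(CPM + 1) of Sfrp1, Wif1, Dkk3 and Dkk2 in each of 10 cell classes at P7, with 1 point per library that held at least 30 cells of the class. Sfrp1 peaks in granule progenitor-like cells in every library, and Wif1 in those cells lies at most at 0.395 CPM in controls and at 2.52 to 18.5 CPM in mutants.

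Within the granule lineage, where Atoh1Cre acts, Sfrp1 was lower, Wif1 went from near absence to a measurable level, and Dkk3 rose in the mutants of both alleles. Sfrp1 was at 246 and 273 CPM in Insm1 controls and at 129, 135 and 137 CPM in Insm1 mutants (log2 change -0.96, SE 0.11). In Tead1/2 controls it was at 265 and 228 CPM and in mutants at 113, 106 and 141 CPM (log2 change -1.03, SE 0.11). The groups did not overlap, and the change was smaller than in the sums over all barcodes. In the same sums the 10 granule neuron markers went from 6700.2 to 7129 CPM to 8491 to 9069 for Insm1 (6 called higher and 2 lower) and from 6343 to 7085 to 7174 to 7746 CPM for Tead1/2 (6 higher and 3 lower), and their part in the Sfrp1 values of the lineage was not tested. In progenitor-like cells alone Sfrp1 ranged from 406 to 430.4 CPM in controls and from 223 to 233 in mutants for Insm1, and from 336 to 366 and from 157 to 206 CPM for Tead1/2. In neuron-like cells the ranges were 46.1 to 46.8 and 16.0 to 16.7 CPM for Insm1, and 38.9 to 53.0 and 22.2 to 33.8 CPM for Tead1/2. Different clusters held most neuron-like cells of the genotypes: clusters 1 and 2 held most of those of controls, and clusters 13 and 21, with 2.54% and 0.407% control cells, held 61.1% to 87.3% of those of each mutant library. In clusters 1 and 2 Sfrp1 was at 18.04, 10.8 and 23.4 CPM in Insm1 mutants and at 17.9, 15.1 and 19.7 in Tead1/2 mutants, and in clusters 13 and 21 it was at 15.2, 17.6 and 15.7 and at 24.9, 29.1 and 39.3 CPM.

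With each progenitor-like cell thinned to 2000 UMIs, 50.8% and 50.8% of the cells of Insm1 controls held an Sfrp1 UMI, against 32.1%, 31.2% and 32.6% of those of Insm1 mutants. For Tead1/2 the shares were 46.3% and 46.6% in controls and 25.0%, 22.9% and 28.2% in mutants. Before thinning they were 74.5% to 77.7%, 57.7% to 63.2%, 74.7% to 76.1% and 46.0% to 60.9%. In microglia-like cells the thinned share was at most 4.0%, at median depths of 3253 to 5607 UMIs per cell against 4467 to 7960 in progenitor-like cells, so the progenitor shares were far above this background. From 9 to 89 progenitor-like cells per library were too shallow to enter.

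Wif1 in the granule lineage was at 0.256 and 0 CPM in Insm1 controls (7 and 0 UMIs) and at 1.44, 2.23 and 2.64 CPM in Insm1 mutants (23, 35 and 21 UMIs), with a fitted log2 change of 3.598 (SE 0.73). In Tead1/2 controls it was at 0.0340 and 0.216 CPM (1 and 4 UMIs) and in mutants at 5.27, 11.9 and 10.3 CPM (84, 219 and 185 UMIs), with a log2 change of 6.36 (SE 0.62). These fitted changes rest on 0 to 7 UMIs per control library, and Wif1 passed the low-count filter there through the mutants, so no comparison of the alleles is drawn from them. After thinning, 0% to 0.130% of progenitor-like cells of controls, 0.609% to 0.703% of those of Insm1 mutants and 1.08% to 3.13% of those of Tead1/2 mutants held a Wif1 UMI. Before thinning these shares were 0% to 0.255%, 1.24% to 2.09% and 2.92% to 7.33%. Wif1 was thus detected in few cells at this depth, which does not limit how many cells express it at a low level.

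Dkk3 rose in the granule lineage of Insm1 mutants, from 1.42 and 0.772 CPM in controls to 2.63, 5.09 and 4.78 CPM (log2 change 1.82, SE 0.34, adjusted p = 0.00185), a call kept with each library left out. In Tead1/2 mutants it rose from 1.43 and 0.916 CPM to 2.45, 2.66 and 2.61 CPM (log2 change 1.09, SE 0.33, adjusted p = 0.0349). That call was lost without Tead1/2 control 1 (1.48, adjusted p = 0.0639), control 2 (0.85, 0.209), mutant 2 (1.06, 0.0811) or mutant 3 (1.08, 0.0657), within a range of 0.000952 to 0.209 over all settings. These levels stayed far below those of astroglia-like cells. In the same sums the 12 astroglia markers added up to 318 to 339 CPM in controls and 206 to 238 in mutants for Insm1, and to 371 to 423 and 283 to 310 CPM for Tead1/2, with 2 of the 11 tested called higher and 2 lower for each allele. The 10 fibroblast markers, Igf2 among them, went from 16.6 to 17.8 CPM to 38.1 to 50.03 for Insm1 (1 of 6 tested called higher). For Tead1/2 they went from 17.1 to 18.0 to 42.6 to 66.3 CPM (1 of 6). The muscle markers went from 68.2 to 70.4 CPM to 168 to 203 for Insm1 (6 of 14 called higher). For Tead1/2 the muscle markers went from 65.9 to 83.4 to 282 to 1048 CPM (12 of 14). Their part in the Wif1 and Dkk3 values was not tested.

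Sfrp2, Sfrp4 and Frzb overlapped between mutants and controls of both alleles in the granule lineage. Sfrp2 was at 5.18 and 5.53 CPM in the controls and 4.26, 8.02 and 8.17 in the mutants for Insm1. For Tead1/2 it was at 6.09 and 5.61 CPM and at 3.32, 6.14 and 7.26. Library 1, the one with all lobules, was the lowest of the 3 mutants for both alleles. With the lineage as denominator, the Sfrp2 change after Tead1/2 deletion was -0.06 (SE 0.29, adjusted p = 0.922), where over all barcodes it was -0.84. Of the 6 members that passed the filter here, 4 were tested, and 1 (Dkk3) was called higher and 0 lower for each allele, where 18.6% of 16247 genes were called for Insm1 (11.4% higher and 7.2% lower) and 20.4% for Tead1/2 (12.3% higher and 8.09% lower). The difference between the alleles was called for 0 of the 5 members other than Wif1 by edgeR, with 0 at an unadjusted p under 0.05 and 0 by DESeq2, where 0.936% of all genes were called (0.548% higher and 0.388% lower).

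In 5 of the 6 mutant libraries most progenitor-like cells fell into clusters that held few control cells. Progenitor-like clusters 0, 3, 5 and 6 held cells of every group, whereas clusters 4, 22, 26 and 27 held 11 of 1997, 1 of 1484, 0 of 1188 and 0 of 630 cells from controls. Cluster 26 was led by Tacr1, Cenpp and Bcl11b. The second kind, defined after seeing these counts as clusters with under 5% control cells, held 61.1%, 82.7% and 85.8% of the progenitor-like cells of Insm1 mutants and 49.1%, 74.7% and 63.5% of those of Tead1/2 mutants.

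Sfrp1 was lower than in controls in both kinds of cluster, and Wif1 lay almost wholly in the second. In the clusters shared with controls, Sfrp1 was at 249, 211 and 187 CPM in Insm1 mutants and at 197, 186 and 217 CPM in Tead1/2 mutants. In the clusters with few control cells it was at 206, 231 and 240 CPM and at 130, 148 and 200 CPM. Wif1 had 0 UMIs of 5417593 in the shared clusters of Insm1 mutants, which allows up to 0.554 CPM, and 77 UMIs in the other clusters (4.05, 4.80 and 5.26 CPM). In Tead1/2 mutants it had 10 UMIs in the shared clusters (0.577, 2.14 and 0.236 CPM) and 464 UMIs in the others (15.6, 23.9 and 25.6 CPM).

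Dkk3 was at 1.52, 1.32 and 4.87 CPM in the shared progenitor-like clusters of Insm1 mutants and at 5.16, 9.06 and 8.15 CPM in the others. In Tead1/2 mutants it was at 1.92, 3.57 and 1.89 CPM and at 4.93, 3.55 and 4.77 CPM. Sfrp2 was at 3.35, 12.6 and 9.74 CPM in the shared clusters of Insm1 mutants and at 9.77, 14.001 and 13.9 CPM in the others, and at 2.69, 3.22 and 4.02 CPM against 7.30, 11.4 and 15.3 CPM in Tead1/2 mutants. In each mutant library of both alleles the second kind of cluster thus had the higher Sfrp2 level. These contrasts between clusters are a description.

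**Figure D4:**
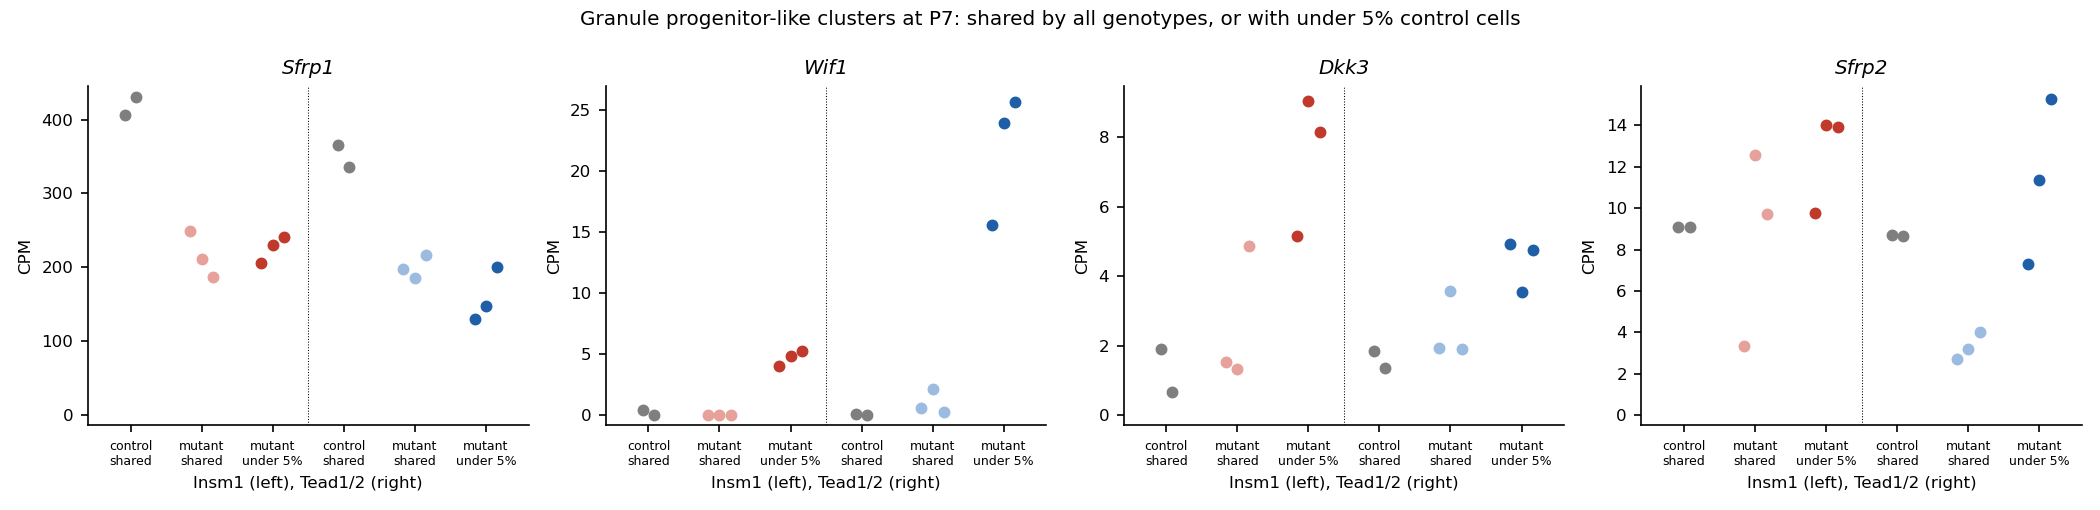
CPM of Sfrp1, Wif1, Dkk3 and Sfrp2 in granule progenitor-like cells of each P7 library, split into clusters shared with controls and clusters with under 5% control cells. Wif1 of mutants is at 0 to 2.14 CPM in shared clusters and at 4.05 to 25.6 CPM in the others, while Sfrp1 of mutants is below controls in both.

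Outside the granule lineage, Dkk3 was at 60.2 and 67.3 CPM in the interneuron-like cells of Tead1/2 controls and at 41.7, 40.1 and 42.7 CPM in those of Tead1/2 mutants. It fell by a log2 change of -0.61 (SE 0.14, adjusted p = 0.0350), where 0.964% of 12243 genes were called (0.392% higher and 0.572% lower), and it was the 1 member tested there. In the same sums 2 of 9 granule progenitor markers, 2 of 7 skeletal muscle markers and 1 of 4 meningeal fibroblast markers were called higher, none of these lower, and 0 of the 8 interneuron markers were called. Their part in the Dkk3 value was not tested. The call was lost without any single Tead1/2 library (adjusted p = 0.0655 without mutant 3 to 0.412 without control 2), while the change stayed between -0.69 and -0.54 with any 1 library left out. It was also lost with the replicate number as a block (-0.60, adjusted p = 0.0503), a number that at P7 carries the dissection, since library 1 of each group held all lobules. Over all settings the adjusted p ranged from 5.49e-05 to 0.412, and the change was -1.40 with only the highest 4% of doublet scores left out, a setting under which 14.7% of genes were called for Tead1/2 and 19.3% for Insm1. In Insm1 libraries Dkk3 was at 46.6 and 54.7 and at 50.3, 36.2 and 34.0 CPM (adjusted p = 0.755, with 0.147% of genes called, 0.0163% higher and 0.131% lower). Sfrp1 was also lower in the interneuron-like cells of Insm1 mutants. After thinning, 1.90% and 2.60% of these cells held an Sfrp1 UMI in controls, against 0.832%, 0.799% and 1.49% in mutants. For Tead1/2 the shares were 0.820% and 0.930% in controls and 1.07%, 0.615% and 0.819% in mutants. In microglia-like cells the thinned share was 4.0% in Insm1 control 2 (25 cells deep enough) and 2.5% in Insm1 mutant 1 (40 cells). It was 0% in every other library. The 4.0% thus rests on few cells, and whether the interneuron-like shares stand above this background was not tested.

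In astroglia-like cells Dkk3 was at 179 and 163 CPM in controls and 166, 166 and 175 in mutants for Insm1, and at 162 and 219 CPM and 136, 152 and 151 for Tead1/2. Wif1 in these cells was at 47.4 and 27.8 CPM in controls and 28.8, 16.5 and 21.5 in mutants for Insm1, and at 32.6 and 3.00 CPM and 34.7, 13.8 and 14.2 for Tead1/2. The library with all lobules had the highest Wif1 of each group there, and mutants and controls overlapped. The Tead1/2 control at 3.00 CPM held 35 astroglia-like cells, so its value and the order of these controls rest on few UMIs. Of the 2 members tested in astroglia-like cells (Dkk2 and Dkk3), edgeR called 0 for Insm1 and 0 for Tead1/2, with 0 and 1 (Dkk3) at an unadjusted p under 0.05 and 0 by DESeq2, where 0.311% (0.19% higher, 0.121% lower) and 1.25% (0.666% higher, 0.58% lower) of genes were called. With only the highest 4% of doublet scores left out, Dkk3 was called higher there for both alleles (0.96, adjusted p = 0.000493, and 0.63, adjusted p = 0.00733, over ranges of 0.000493 to 1 and 0.00733 to 0.855), so that its direction depends on how doublets were treated. Under that setting 29.7% of genes were called for Insm1 (16.6% higher) and 33.4% for Tead1/2 (17.8% higher).

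The rest of the pathway was followed in 75 further genes. At P2 edgeR called 0 of the 65 tested for Insm1, 0 of the 65 tested for Tead1/2 and 0 of 67 for the difference. Over all genes 0.689% were called for Insm1, 0% for Tead1/2 and 0% for the difference. Fits with 0% called cannot set the pathway apart from other genes. Without the library labelled Tead1/2 mutant 4 it called 3 higher and 0 lower of 65 for Tead1/2, where 1.98% of all genes were called higher and 1.22% lower, and 0 of 67 for the difference. The 3 were Ccnd1, a cyclin and target of the pathway (log2 change 0.52, adjusted p = 0.00516), Wls, which carries Wnt ligands to the cell surface (0.29, adjusted p = 0.0281), and Ctnnb1, which encodes β-catenin (0.21, adjusted p = 0.0467). Ccnd1 was at 189 to 209 CPM in controls, at 260.2 to 306 in those 3 mutants and at 196 in the library left out. In the P7 sums 66 were tested, of which 30 were called higher and 11 lower for Insm1 (median log2 change 0.34, beside 0.04 over all genes) and 32 higher and 15 lower for Tead1/2 (0.37, beside 0.06). Over all genes 18.6% were called higher and 15.4% lower for Insm1, and 25.9% and 22.7% for Tead1/2. All 16 skeletal muscle markers were called higher in the same sums for each allele. For Insm1 and Tead1/2, 2 and 9 of 10 meningeal fibroblast markers, 3 and 5 of 9 mural cell markers and 5 and 5 of 12 astroglia markers were called higher too, and 8 and 9 of 10 granule progenitor markers lower. The part of these markers in the pathway counts was not tested. Kremen1, the receptor that acts with Dkk1 and Dkk2, rose from 18.97 to 19.4 CPM to 67.9 to 72.2 in Insm1 mutants (log2 change 1.87, SE 0.10, adjusted p = 4.3e-07) and from 16.7 to 18.3 to 92.7 to 119 CPM in Tead1/2 mutants (2.62, adjusted p = 3.6e-08). Lef1, a transcription factor of the pathway, rose from 15.2 to 18.9 CPM to 46.8 to 50.8 and from 12.8 to 17.0 CPM to 70.2 to 76.5. Tnfrsf19, a target of the pathway, rose from 14.7 to 16.3 CPM to 52.8 to 62.2 in Insm1 mutants and from 12.9 to 17.3 CPM to 87.4 to 102 in Tead1/2 mutants. Apc, part of the β-catenin destruction complex, fell from 1049 to 1079 CPM to 659 to 689 in Insm1 mutants, and it was at 941 to 979 CPM in Tead1/2 controls and 599 to 643 in Tead1/2 mutants.

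In the granule lineage 53 of these genes were tested, and 13 were called higher and 7 lower for Insm1 and 15 higher and 6 lower for Tead1/2. Over all genes 11.4% were called higher and 7.2% lower for Insm1, and 12.3% and 8.09% for Tead1/2. The muscle markers were called higher in the same sums, 6 of 14 for Insm1 and 12 of 14 for Tead1/2. Of 10 granule neuron markers, 6 were called higher for each allele, and 2 (Insm1) and 3 (Tead1/2) lower. The part of these markers in the pathway counts of the lineage was not tested. Of 9 targets or feedback genes, 5 rose and 1 fell for each allele, and of 17 receptors 5 rose and 2 fell for Insm1 and 7 rose and 2 fell for Tead1/2. Of 8 ligands, 0 rose and 1 fell for each allele. Lef1 rose from 4.70 to 6.28 CPM in Insm1 controls to 26.5 to 39.8 in mutants (log2 change 2.62) and from 2.96 to 4.39 CPM to 68.1 to 88.1 after Tead1/2 deletion (4.39). It was the only one of the 53 for which the difference between the alleles was called (-1.77, adjusted p = 0.0110). Apcdd1, a membrane inhibitor and target of the pathway, rose from 12.2 to 18.0 CPM to 36.7 to 48.6 and from 17.4 to 20.1 CPM to 70.9 to 94.8. Of the 2 other secreted antagonists tested, Draxin rose for both alleles (log2 changes 0.80 and 0.56), from 172 to 174 CPM to 289.7 to 310.1 in the Insm1 libraries. The other one, Igfbp4, which binds insulin-like growth factors as well, fell for both (-1.10, adjusted p = 0.0123, and -1.01, adjusted p = 0.0112) and is named here to complete this count.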

How the data were processed

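The P2 tables deposited by the authors hold expected counts from RSEM for each gene, with no scaling, and the submitters' processing notes name RSEM 1.3.3 and STAR 2.7.9a without saying for which assay. Each of the 2 deposited P2 tables is named for the other allele than the one its columns belong to; libraries were assigned by the column names that the labels give. For the P7 libraries (Parse Evercode split-pool barcoding) the authors deposited raw UMI counts per barcode, with a GRCm39 build per the file headers; the aligner is not given in the sources used here. Expected counts were rounded. Barcodes with at least 1000 UMIs, 500 genes and under 15% mitochondrial UMIs were kept. Scrublet marked doublets at its own threshold in 7 libraries; in 3, where it marked under 0.5%, the median threshold of the 7 was used. The marked barcodes were deeper (library medians of 16540 to 26269 UMIs) than those kept (4409 to 7760), and 2135 to 5850 cells per library were clustered with scanpy 1.11.5 (2000 variable genes without the 9 antagonists, 30 components, 15 neighbours, Leiden resolution 1). A cluster was named from at least 3 preset markers at 1.5 times their mean over clusters, in over 10% of its cells, with no conflict in its leading genes.

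Counts per library were fitted with the quasi-likelihood test of edgeR 4.0.16 in R 4.3.3, after TMM scaling and filterByExpr, separately per allele at P2 and over 10 libraries in 4 groups at P7. Adjusted p-values are Benjamini-Hochberg values over all genes tested, and a gene is called under 0.05. DESeq2 1.42.0 was the alternative tool. Sex, read from Xist and Ddx3y, was uneven between the groups, and the main fits held no term for it. Among P2 libraries of Insm1, only mutants 3 and 4 were male. Among those of Tead1/2, only control 2 and the library labelled mutant 4 were female. Male single-cell libraries were control 2 and mutant 1 for Insm1, with mutants 1 and 2 for Tead1/2. Sex and genotype thus overlap in part. The fits were tested on simulated data. No 2 libraries of a group were copies (chi-square per degree of freedom at least 10.0). The members and the marker and pathway lists were chosen with earlier results of these data known. All 9 members are named; of the pathway genes, those with the smallest adjusted p among the genes called with a mean of at least 1 CPM, up to 5 per contrast, could be named. Intervals and detection limits cover counting error only.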

Additional observations from a re-analysis of the deposited data

Results flagged for a closer look

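Wif1 in the P2 cerebellum of Tead1/2 mutant 3 was at 6.26 CPM, apart from the other 3 mutants at 5.03 to 5.22 CPM, by Dixon's test at the 95% level. Chance flags about 1 group in 20 by this test, and 27 groups of 4 libraries were looked at. The Wif1 change in the P7 sums differed between the alleles by -1.57 on the log2 scale (Insm1 minus Tead1/2), in a test of the difference itself. That test rests on the Wif1 values that were in view when the genes were chosen.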

How the results depend on the processing

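The alternatives changed the tool, the scaling, the low-count filter, the sex term, the cell and doublet filters and the libraries used, and Sfrp1 kept its direction in the sums over all cells and in the granule lineage under every one of them. That direction was part of the choice of genes, so this describes the processing and is no test of the direction. With no low-count filter 1 member was called at P2 for Tead1/2 in place of 0, and 2 in place of 1 for Insm1 and for the difference between alleles in the P7 sums. DESeq2 also called 2 in place of 1 in each of these 2 P7 comparisons, and leaving out the barcodes marked as doublets gave 0 in place of 1 for Insm1. With only the highest 4% of doublet scores left out, 5 calls were made in interneuron-like and astroglia-like cells in place of 1, where the share of all genes called rose as well, to 14.7% to 33.4% from 0.147% to 1.25%, and the median levels were 63.0 CPM for Sfrp1 in microglia-like cells, 10.7 CPM for Wif1 and 78.4 CPM for Dkk3 in astroglia-like cells. With 1 library left out, the members called ranged from 0 to 1 at P2 for Tead1/2, from 0 to 2 in the P7 sums for Insm1, from 2 to 4 there for Tead1/2, from 1 to 2 for their difference between alleles, from 0 to 1 in the granule lineage for Tead1/2 and from 0 to 1 in the other classes.

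The replicate numbers did not pair the samples: the correlation of residuals at the same number was -0.131 to 0.227 at P2 and -0.124 to 0.0365 at P7, and with 3 or more pairs not every sample correlated best with its own number. With the replicate number as a block, the members called at P2 were 0, 0 and 0, in the P7 sums 1 (Insm1), 3 (Tead1/2) and 1 (difference), in the granule lineage 1 and 1, and in the other classes 0 in place of 1. Over all genes the block moved the P2 calls from 135 to 64 for Insm1 and from 0 to 236 for Tead1/2.

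Changes that reversed reached about 0.25 in size outside astroglia-like cells, and some in those cells were larger. Dkk2 at P2 (Insm1) was -0.25 with sex as a term. Frzb in the P7 sums (Insm1) was -0.015 with DESeq2, -0.010 with its size factors, -0.0082 with no low-count filter, -0.0017 with sex and -0.078 without marked doublets, and Sfrp4 there was 0.019 without them. In the granule lineage Frzb (Insm1) was -0.048 with DESeq2, -0.0036 with no filter and -0.072 with the milder doublet filter, and Sfrp2 (Tead1/2) was 0.25 with sex and 0.0068 with the milder filter. In astroglia-like cells Dkk3 (Insm1) was 0.0061 with no filter and 0.96 with the milder doublet filter, Dkk3 (Tead1/2) was 0.63, Wif1 (Insm1) was 0.51, and Wif1 (Tead1/2) was 0.80 with that filter, 0.044 with DESeq2 and 0.077 with the block. The cause was not tested. With 1 library left out the ranges that crossed 0 were, at P2, -0.0058 to 0.082 (Sfrp4, Insm1), -0.032 to 0.17 (Sfrp4, Tead1/2), -0.075 to 0.18 (Dkk2, Insm1) and -0.16 to 0.0089 (Dkk2, Tead1/2). In the P7 sums they were -0.14 to 0.14 (Frzb, Insm1) and -0.11 to 0.23 (Dkk3, Tead1/2). In the granule lineage they were -0.053 to 0.27 (Frzb, Insm1), -0.11 to 1.202 (Frzb, Tead1/2), -0.30 to 0.19 (Sfrp2, Tead1/2) and -0.15 to 0.66 (Sfrp4, Tead1/2). In astroglia-like cells they were -0.080 to 0.044 (Dkk3, Insm1) and -0.87 to 2.69 (Wif1, Tead1/2). The Wif1 range involves a control library with 35 such cells.

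Counts over all genes moved by more than 1.5 times as follows. At P2, the 135 calls for Insm1 became 307 with DESeq2, 212 with no filter and 88 with sex, with 178 of the 307 and 94 of the 135 higher, and the 0 for Tead1/2 became 1287 with no filter. In the P7 sums the 906 calls for the difference became 2102 with DESeq2 and 227 with sex, and the 8346 for Insm1 became 4906 without marked doublets. In the granule lineage the 152 calls for the difference became 286 with DESeq2, 598 with no filter and 95 with sex. Depth limits Sfrp5 and Dkk1, which could not be fitted at either age, and Wif1 in control granule cells.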
